A study of Mus musculus with 11 samples.

Results

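The collagen genes other than Col4a1 and Col4a2 were examined in mouse embryonic stem cells that differ in their DNA methyltransferases. The members were every gene of the count table whose symbol reads Col, a number, a and a number, with Col4a1 and Col4a2 left out, which gave 42 of the 44 genes of that form and of 25239 genes in all. The libraries came from J1 cells, a mouse embryonic stem cell line, of 3 genotypes labelled TKO, TKO_FL and TKO_602, with 1 library each, and all were titled day 0. Other samples of the series write the first genotype as DNMT TKO, and the design text joins the suffix of each of the others to TKO with a plus sign, so all 3 share the TKO background. The sources used here do not say what the suffixes stand for or whether a line is 1 clone. All cells grew with serum and LIF on mouse embryonic fibroblasts stopped from dividing with mitomycin C, and the RNA was enriched with oligo(dT). These fibroblast feeders make collagens themselves, and reads from feeders and stem cells cannot be told apart in these libraries. The other 8 samples, immunoprecipitated DNA, were not analysed here.

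Collagens are trimers of alpha chains wound into a triple helix through a repeat with glycine in each turn. Fibrillar collagens build the banded fibrils of connective tissue and cartilage, while other classes form networks, beaded filaments, links on the fibril surface or proteins of the cell membrane. Chains are hydroxylated and folded in the endoplasmic reticulum, cut outside the cell and crosslinked by lysyl oxidases. In embryonic stem cell cultures, collagens can come from the stem cells, from differentiating derivatives such as primitive endoderm, which lays down basement membrane, and from the feeders.

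The promoters of the 4 members that TKO_FL held at 2-fold or more of their TKO level, and of the member with the largest deficit in TKO_602, are shown because DNA methylation acts on CpG dinucleotides and these genes differ widely in how many they hold. Each run is the 250 bases before the gene start, written along the gene's strand from RefSeq on GRCm38.p6, the assembly called mm10 in the files, with every CpG in capitals. The runs are Col9a2 at chr4:121039316-121039565 on the plus strand with 9 CpG, Col20a1 at chr2:180986285-180986534 on the plus strand with 1 CpG, Col13a1 at chr10:61979109-61979358 on the minus strand with 24 CpG, Col11a2 at chr17:34038888-34039137 on the plus strand with 14 CpG, and Col6a5 at chr9:105960644-105960893 on the minus strand with 8 CpG.
Col9a2: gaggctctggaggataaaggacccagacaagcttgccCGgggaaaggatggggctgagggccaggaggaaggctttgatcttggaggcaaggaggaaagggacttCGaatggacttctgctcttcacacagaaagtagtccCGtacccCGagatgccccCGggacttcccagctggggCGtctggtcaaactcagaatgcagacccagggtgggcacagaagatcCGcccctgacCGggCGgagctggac
Col20a1: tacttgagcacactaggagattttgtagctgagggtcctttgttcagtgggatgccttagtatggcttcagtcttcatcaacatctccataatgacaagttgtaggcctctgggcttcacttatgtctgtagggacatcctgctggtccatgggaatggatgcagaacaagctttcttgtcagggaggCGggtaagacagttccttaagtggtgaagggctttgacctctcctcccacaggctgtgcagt
Col13a1: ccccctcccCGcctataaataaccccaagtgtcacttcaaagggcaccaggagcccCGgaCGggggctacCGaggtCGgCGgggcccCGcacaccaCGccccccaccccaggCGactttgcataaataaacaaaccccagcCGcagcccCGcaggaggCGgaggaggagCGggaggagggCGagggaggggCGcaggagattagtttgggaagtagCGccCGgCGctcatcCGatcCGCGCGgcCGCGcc
Col11a2: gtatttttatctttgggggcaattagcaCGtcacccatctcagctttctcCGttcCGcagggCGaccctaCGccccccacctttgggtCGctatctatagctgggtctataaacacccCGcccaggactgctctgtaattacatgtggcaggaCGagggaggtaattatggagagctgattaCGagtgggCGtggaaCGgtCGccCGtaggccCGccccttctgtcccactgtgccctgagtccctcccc
Col6a5: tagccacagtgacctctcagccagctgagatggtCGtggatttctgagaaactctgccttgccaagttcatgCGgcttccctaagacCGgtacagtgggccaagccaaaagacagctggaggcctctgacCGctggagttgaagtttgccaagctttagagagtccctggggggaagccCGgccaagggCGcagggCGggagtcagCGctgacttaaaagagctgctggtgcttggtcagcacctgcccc

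The libraries held 21133660 reads assigned to genes in TKO, 19573689 in TKO_FL and 43158441 in TKO_602. Each mate of a pair was counted, so a fragment gives up to 2 reads. The alignment of TKO_602 is listed under another folder than the other libraries and it holds the most reads, so what sets it apart by genotype and what by batch cannot be told apart. Dnmt1, the maintenance DNA methyltransferase, stood at 159, 3364 and 2444 CPM (reads scaled to library size with trimmed-mean factors) in TKO, TKO_FL and TKO_602, the order in which values are given throughout. The 14 pluripotent stem cell markers, all measured, summed to 7444, 9007 and 8629 CPM, and Pou5f1, which encodes OCT4, lay at 1386, 1290 and 1169 CPM. Of these 14, Klf4, Tbx3 and Dppa5a were at least 2-fold higher on CPM + 1 in TKO_602 than in TKO, and Lin28a was lower. Over all genes, 19.0% differed that far in this comparison. Against TKO_FL, TKO_602 held at least 2-fold more Klf4 and Tbx3 and less Zfp42, beside 11.6% of all genes. In TKO_FL against TKO, 0 of the 14 differed that far, beside 5.74% of all genes. Markers of other cells differed between the libraries as well. The 24 fibroblast feeder markers, collagens left out, summed to 1131, 722 and 852 CPM, with 23 measured, Lum below 1 CPM in each library and Meox1 without reads in TKO_602; 4 of them are also in the fibril-associated list described further on, 1 in the crosslinking list and 1 in the degradation list. The 15 primitive endoderm markers, all measured, summed to 3603, 1252 and 1809 CPM. In bulk RNA, fewer cells of a type and less RNA per cell cannot be told apart.

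Of the 42 members, 31 reached 1 CPM in at least 1 library and are called measured below, and 24 reached it in all 3. Levels were uneven, and 1 gene led in each library. Col18a1, whose basement membrane protein is the source of endostatin, held 541, 473 and 387 CPM, which is 43.6%, 50.4% and 33.9% of the CPM of all 42 members. Per kilobase of exon it ranked first in every library at 93.5, 81.6 and 66.8 CPM per kilobase. The next ranks went to Col1a1 and Col1a2, the chains of type I collagen, at 27.5 and 23.3 CPM per kilobase in TKO, 13.3 and 14.2 in TKO_FL, and 29.0 and 21.1 in TKO_602. The summed CPM of the 42 members was 1243, 938 and 1143, and 701, 465 and 756 without Col18a1.

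**Figure D1:**
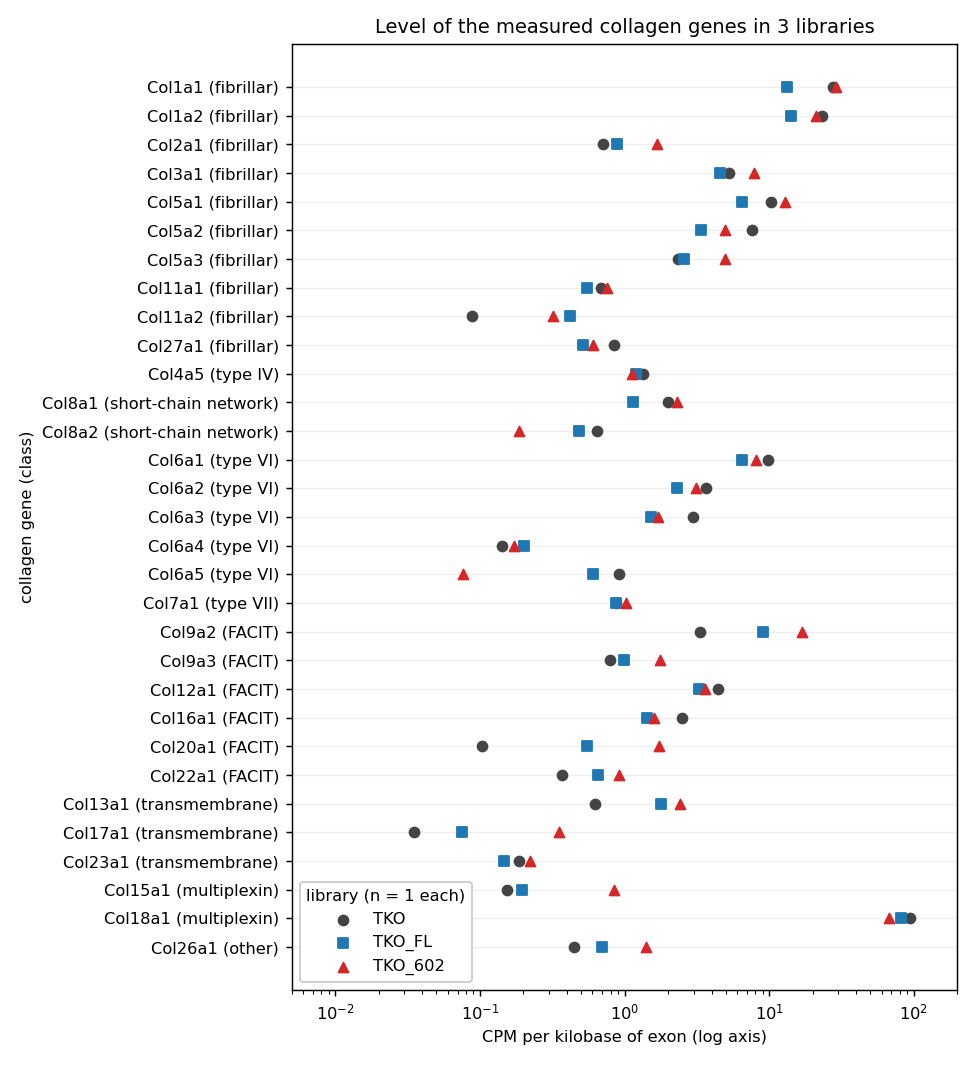
Level of the 31 measured collagen genes, 1 point per library, as CPM per kilobase of exon on a log axis, grouped by class. Col18a1 lies farthest right at 66.8 to 93.5 CPM per kilobase, and TKO_FL lies left of the other libraries for Col1a1, Col1a2, Col5a1 and Col5a2.

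Col18a1 aside, the fibrillar class was the largest, with 10 of 11 members measured and a sum of 483, 286 and 518 CPM. That sum was below the level of Col18a1 in TKO and TKO_FL and above it in TKO_602. TKO_FL was the low library for most of the abundant fibrillar chains. Col1a1 stood at 163, 79.0 and 172 CPM and Col1a2 at 122, 74.0 and 110 CPM. Col3a1, the type III chain of extensible tissues, gave 29.5, 25.3 and 43.8 CPM. The type V chains, which start and thin type I fibrils, did not share 1 order. Col5a1 read 87.0, 54.1 and 109 CPM, Col5a2 read 50.4, 22.5 and 32.6 CPM, and Col5a3 read 14.4, 15.8 and 30.1 CPM. Thus TKO was highest for Col5a2 and lowest for Col5a3, and TKO_602 was highest for Col5a1 and Col5a3.

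The cartilage fibril chains were far scarcer. Col2a1, the type II chain of cartilage, stood at 3.67, 4.58 and 8.61 CPM. Col11a1 gave 5.31, 4.21 and 5.82 CPM and Col11a2 gave 0.579, 2.76 and 2.10 CPM, the latter from 12, 53 and 94 reads. Both are type XI chains found inside type II fibrils, and Col11a2 was lowest in TKO while Col11a1 stayed between 4.21 and 5.82 CPM. Col27a1, another cartilage fibrillar chain, gave 6.42, 3.95 and 4.60 CPM, and Col24a1 had 15, 3 and 8 reads and was not measured.

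Among network collagens, Col4a5, a chain of specialised basement membranes, gave 8.74, 7.75 and 7.32 CPM. Its partner Col4a6, which starts 1.34 kb away on the opposite strand, had 8, 8 and 26 reads, so Col4a5 exceeded it per kilobase by 23.2-fold in TKO (95% interval 8.69 to 86.4), 19.1-fold in TKO_FL and 12.9-fold in TKO_602. Col4a3 and Col4a4, the other chains of these membranes, had at most 6 reads. Col8a1 and Col8a2, the type VIII chains of vessel walls and the cornea, gave 10.2, 5.88 and 11.8 CPM and 2.80, 2.08 and 0.803 CPM. TKO_602 was thus the highest library for Col8a1 and the lowest for Col8a2. Col10a1, the hypertrophic cartilage collagen, had 4, 0 and 34 reads.

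Type VI collagen forms beaded filaments around cells, and 5 of its 6 chains were measured. Col6a1 stood at 39.0, 25.8 and 32.1 CPM, Col6a2 at 21.9, 13.8 and 18.7 CPM, and Col6a3 at 32.4, 16.6 and 18.5 CPM. TKO was the highest and TKO_FL the lowest library for each of these 3 chains. Col6a4 stayed near the limit at 1.06, 1.51 and 1.27 CPM, whereas Col6a5 gave 8.55, 5.62 and 0.714 CPM from 177, 108 and 32 reads. Col6a6, next to Col6a5 on chromosome 9 at 27.98 kb, had 14, 12 and 12 reads and was not measured. Col7a1, the anchoring fibril chain of skin, was nearly level at 8.06, 8.01 and 9.51 CPM.

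FACIT collagens sit on fibrils or at membranes with interrupted helices, and their 9 members, of which 6 were measured, summed to 78.9, 80.2 and 115 CPM. Col12a1, which decorates type I fibrils, gave 51.5, 38.6 and 41.9 CPM, and Col16a1 gave 12.9, 7.49 and 8.37 CPM, both highest in TKO. The type IX chain Col9a2, which decorates cartilage fibrils, ran the other way at 9.08, 24.9 and 46.1 CPM from 188, 479 and 2067 reads. Its partner Col9a3 gave 2.27, 2.81 and 5.00 CPM, and the third partner, Col9a1, had only 4, 2 and 0 reads. Col20a1 gave 0.435, 2.29 and 7.21 CPM from 9, 44 and 323 reads, and Col22a1, a chain of tissue junctions, gave 2.27, 4.004 and 5.65 CPM. For Col9a2, Col9a3, Col20a1 and Col22a1 TKO was the lowest and TKO_602 the highest library. Col14a1 and Col19a1 had at most 31 reads in any library.

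The transmembrane collagens were scarce and summed to 3.43, 7.07 and 10.8 CPM. Col13a1, found at cell adhesions and the neuromuscular junction, gave 1.98, 5.67 and 7.61 CPM. Col17a1, the hemidesmosome collagen of epithelia, gave 0.193, 0.416 and 1.96 CPM from 4, 8 and 88 reads. Col23a1 gave 1.06, 0.832 and 1.25 CPM, and Col25a1 had at most 4 reads, so the class sum rested mostly on Col13a1. The second multiplexin, Col15a1, gave 0.821, 1.04 and 4.46 CPM and was high in TKO_602 alone, while Col18a1 was lowest there. Col26a1 gave 1.26, 1.98 and 3.97 CPM, and Col28a1 had 6, 6 and 28 reads.

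The 11 members below 1 CPM in every library had at most 34 reads each: Col4a3, Col4a4, Col4a6, Col6a6, Col9a1, Col10a1, Col14a1, Col19a1, Col24a1, Col25a1 and Col28a1. None was without reads in all libraries. Col10a1 and Col14a1 had 34 and 31 reads in TKO_602 and 0 in TKO_FL, where a count of 0 allows up to 3 fragments. Of the measured members, 7 passed 1 CPM in only some libraries, namely Col6a5 and Col8a2 in TKO and TKO_FL, Col11a2, Col15a1 and Col20a1 in TKO_FL and TKO_602, Col17a1 in TKO_602 and Col23a1 in TKO and TKO_602. Such a member enters through the library where it is high, so the counts below are descriptions.

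With 1 library per genotype no test between genotypes was possible and no replicate check exists for any difference. Folds are log2 of the ratio of CPM + 1, taken over genes with at least 1 CPM in either library, and a gene is called higher or lower at 2-fold or more. The + 1 draws the folds of scarce genes toward 0, so the plain ratio of normalised counts is given too, with an exact 95% binomial interval that covers counting error only. With a pseudocount of 5 in place of 1, fewer scarce members pass: Col9a2, Col5a2 and Col1a1 in TKO_FL against TKO, Col20a1, Col9a2 and Col6a5 in TKO_602 against TKO, and Col1a1 in TKO_602 against TKO_FL. The shares of all genes passing with that pseudocount were 1.29%, 8.82% and 4.52% in the same order. The comparisons share libraries and are not independent of each other.

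In TKO_FL against TKO, Col1a1 and Col5a2 of the fibrillar class were at least 2-fold lower, and Col9a2, Col11a2, Col20a1 and Col13a1 were at least 2-fold higher. Of 30 members tested, Col17a1 not reaching 1 CPM in either library, 4 were higher and 2 lower, which is 20% of them, against 5.74% of all 13563 genes tested, split into 3.24% higher and 2.50% lower. The lower members were Col5a2 at a log2 fold of -1.13 and Col1a1 at -1.04, with ratio intervals of -1.40 to -0.93 and -1.17 to -0.92. Short of 2-fold lay Col6a3 at -0.93, Col1a2 at -0.71, Col16a1 at -0.71, Col8a1 at -0.70, Col5a1 at -0.68, Col6a2 at -0.63, Col27a1 at -0.58 and Col6a1 at -0.58, and the ratio interval of each lay wholly below 0. Col18a1 was at -0.20. Col3a1 at -0.21 had an interval that included 0, and Col5a3 was at 0.12. In all 19 members were below 0 and 11 above, where 50.004% of all genes were above 0, and the median was -0.20 against 0.00 for all genes.

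The 4 higher members in TKO_FL were Col9a2 at 1.36, Col11a2 at 1.25, Col20a1 at 1.20 and Col13a1 at 1.16. Their plain log2 ratios were 1.46 (95% interval 1.11 to 1.82), 2.25 (0.91 to 3.79), 2.40 (1.01 to 4.56) and 1.52 (0.78 to 2.36). Col9a2 had the narrowest interval because it had the most reads, and on the deposited TPM table Col20a1 was at 0.93, short of 2-fold. Among the 24 members at 1 CPM or more in all 3 libraries, 2 were higher and 2 lower in this comparison, with 2.61% higher and 1.79% lower among the 12258 genes that met the same limit.

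The fibroblast feeder markers were also lower in TKO_FL than in TKO, with 4 of 23 tested lower, 0 higher and a median of -0.59. Of all genes, 2.50% were lower and 3.24% higher. The 4 feeder markers were Acta2, smooth muscle actin, at -1.61, S100a4 at -1.17, Tagln at -1.12 and the mesenchymal factor Prrx1 at -1.11. Primitive endoderm markers were lower as well, with 14 of 15 lower, a median of -2.01 and a largest difference at Cubn, an endocytic receptor, which gave 165, 13.4 and 23.8 CPM. The part of either cell type in the values of Col1a1, Col5a2 and the other members was not tested.

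In TKO_602 against TKO, Col20a1 and Col9a2 led the higher collagens and Col6a5 and Col8a2 were lower. Of 31 members tested, 9 were higher and 2 lower, 35.5% of them, against 19.0% of all 13748 genes tested, split into 11.0% higher and 8.06% lower. The largest folds among the higher members were Col20a1 at 2.52 and Col9a2 at 2.23, with plain log2 ratios of 4.05 (95% interval 2.84 to 6.12) and 2.35 (2.04 to 2.67). The other higher members were Col15a1 at 1.59, Col13a1 at 1.53, Col17a1 at 1.31, Col26a1 at 1.14, Col2a1 at 1.04, Col22a1 at 1.02 and Col5a3 at 1.01, and each had a ratio interval wholly above 0. Col5a3 lay at the threshold and gave 0.99 with DESeq2 size factors, while Col11a2 lay just under it at 0.97 and gave 1.02 with library size alone.

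Col6a5 had the largest deficit in TKO_602, at -2.48 with a plain log2 ratio of -3.58 (95% interval -4.44 to -2.79), and Col8a2 followed at -1.08. The neighbouring type VI gene Col6a4, 29.7 kb from Col6a5, was at 0.14. Type I collagen differed little from TKO, with Col1a1 at 0.07 and Col1a2 at -0.14, whereas Col3a1 was at 0.56 and Col5a1 at 0.32. Col6a3 at -0.78, Col5a2 at -0.61, Col16a1 at -0.57 and Col18a1 at -0.48 were lower within 2-fold. Of the 31, 19 were above 0 and 12 below, where 52.0% of all genes were above 0, with a median of 0.14 against 0.03 for all genes. Among the 24 members at 1 CPM or more in every library, 6 were higher and 0 lower, with 9.47% higher and 6.84% lower among all genes meeting that limit.

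Of the feeder markers, 8 of 22 tested were lower and 1 higher in TKO_602 than in TKO, with a median of -0.70. Of all genes, 8.06% were lower and 11.0% higher. The lower feeder markers were S100a4 at -2.87, Twist2 at -2.09, Acta2 at -1.72, Prrx1 at -1.44, Meox1 at -1.35, Thy1 at -1.29, Snai2 at -1.25 and Cd248 at -1.16. The single higher feeder marker was Mmp2, gelatinase A, at 1.83. Primitive endoderm markers were lower in 10 of 15 with a median of -1.62. The part of these cells in the collagen values was not tested.

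Set directly against TKO_FL, TKO_602 held at least 2-fold more of Col15a1, Col20a1, Col1a1 and Col17a1, and less of Col6a5. Of 31 members tested, 4 were higher and 1 lower, 16.1% of them, against 11.6% of all 13683 genes tested, split into 6.75% higher and 4.87% lower. Their log2 folds were 1.42, 1.32, 1.11 and 1.07, and that of Col6a5 was -1.95. Col5a1 stood just short of the limit at 0.99 (1.07 with library size alone), Col8a1 at 0.90, Col5a3 at 0.89, Col9a2 at 0.86 and Col3a1 at 0.77. In all 25 members were above 0 and 6 below, where 52.3% of all genes were above 0, with a median of 0.41 against 0.03 for all genes. The 6 were Col6a5, Col8a2 at -0.77, Col18a1 at -0.29, Col11a2 at -0.28, Col6a4 at -0.14 and Col4a5 at -0.07. Feeder markers gave a median of 0.12 here, with 2 of 22 higher (Pdgfrb and Mmp2) and 2 lower (S100a4 and Twist2). Primitive endoderm markers gave a median of 0.59, with 12 of 14 above 0, 2 higher (Gata6 and Gata4) and 0 lower. The part of either cell type in the collagen values was not tested. Among the 24 members at 1 CPM or more in every library, 1 was higher and 0 lower, beside 5.67% and 4.08% of all genes meeting that limit.

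**Figure D2:**
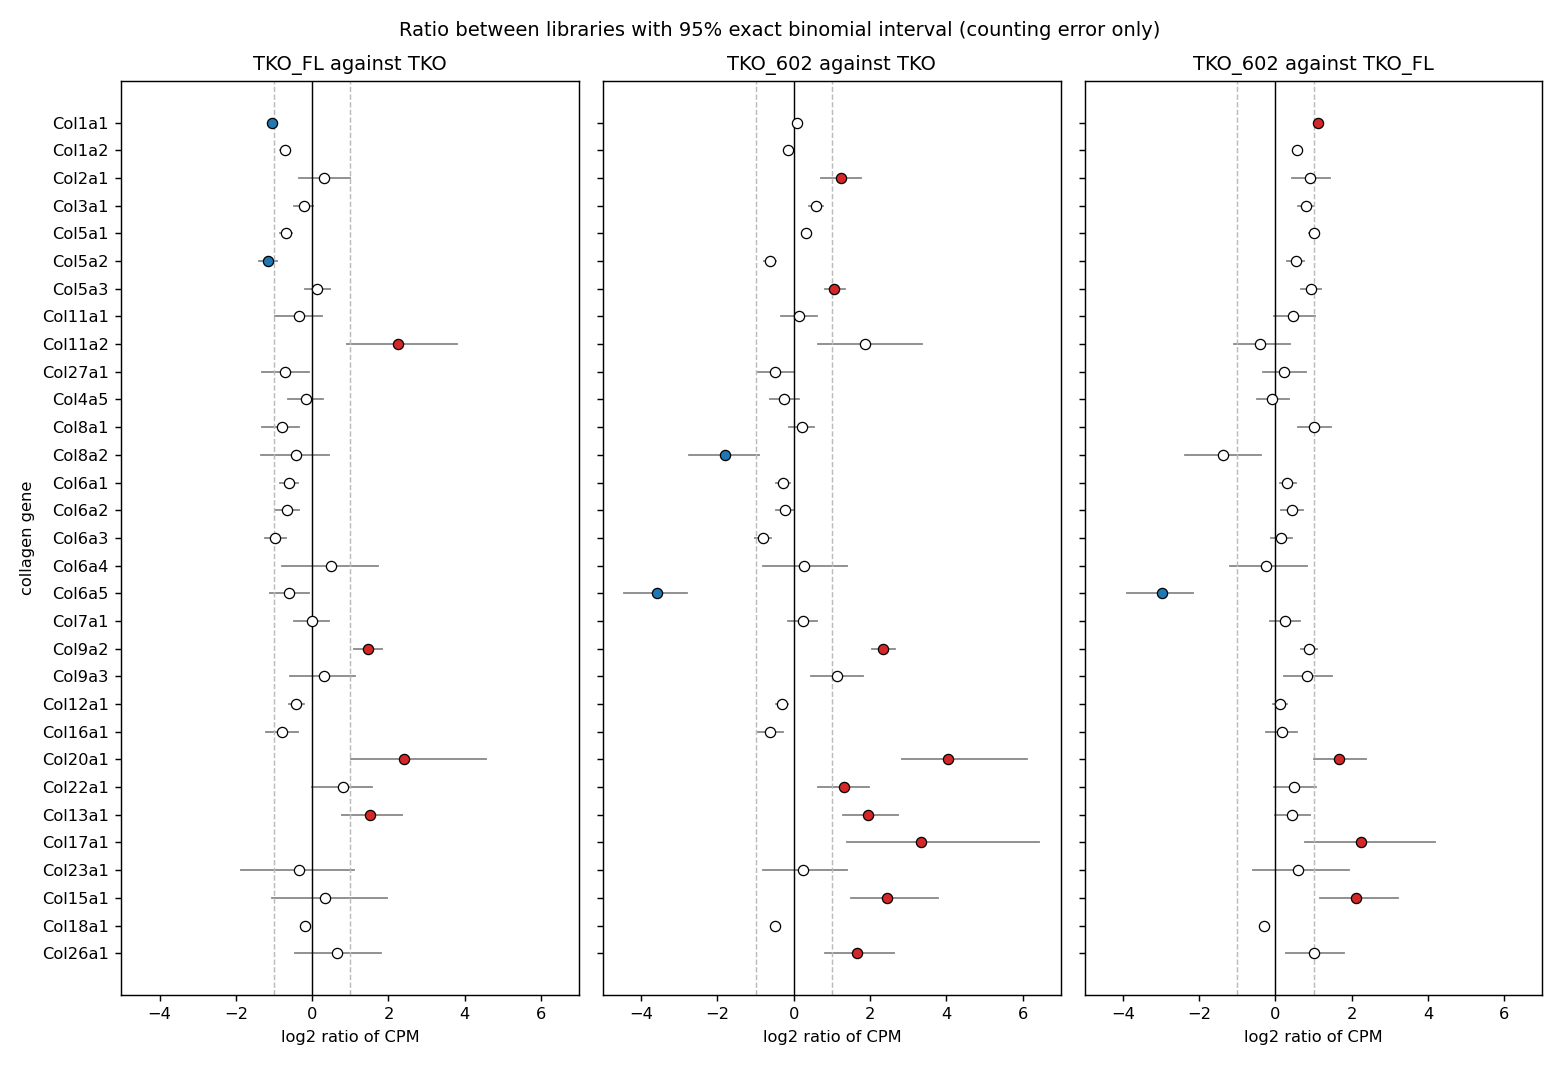
Log2 ratio of CPM between libraries for each measured collagen gene, with exact 95% binomial intervals from the counts as bars; red marks members at least 2-fold higher on CPM + 1, blue those at least 2-fold lower, and dashed lines 2-fold. Col20a1 lies farthest right in TKO_602 against TKO at 4.05, and Col6a5 lies farthest left in both comparisons with TKO_602.

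Members were also described by abundance, split at a mean of 10 CPM over the 3 libraries, which was chosen after the values were seen. The 12 abundant members had a median log2 fold of -0.60 in TKO_FL against TKO, with 10 below 0, of -0.18 in TKO_602 against TKO and of 0.54 in TKO_602 against TKO_FL, with 11 above 0. All genes in that range had medians within 0.01 of 0. Among the 19 scarcer measured members the medians were 0.08, 0.21 and 0.37, beside 0.00, 0.14 and 0.15 for all genes of that range. In TKO_FL against TKO, 9 of the 18 scarcer members tested lay below 0, and of the 9 members higher in TKO_602 than in TKO, 7 were among the 19 scarcer ones and 2, Col9a2 and Col5a3, among the 12 abundant ones. Of all genes, 16.7% of the scarcer and 8.21% of the abundant were higher in that comparison.

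Ratios between chains that assemble together were taken per kilobase. Col1a1 stood to Col1a2 as 1.18 in TKO (95% interval 1.10 to 1.27), 0.941 in TKO_FL (0.848 to 1.04) and 1.37 in TKO_602 (1.30 to 1.44). The type I trimer holds more alpha1 than alpha2 chains, but that is a count of protein chains. These ratios are of RNA reads and do not measure it. Col5a1 to Col5a2 went from 1.36 (1.22 to 1.52) in TKO to 1.90 (1.61 to 2.23) in TKO_FL and 2.62 (2.42 to 2.86) in TKO_602. The intervals do not overlap between the libraries for Col1a1 to Col1a2 or for Col5a1 to Col5a2, with counting error alone considered. Col6a1 to Col6a2 stayed close, at 2.69, 2.82 and 2.60 with overlapping intervals, whereas Col6a1 to Col6a3 gave 3.27 (2.83 to 3.80), 4.24 (3.45 to 5.19) and 4.73 (4.19 to 5.35). For Col6a1 to Col6a3 the TKO_FL interval overlapped both others, and those of TKO and TKO_602 did not overlap. Col9a2 to Col9a3 was 4.15 (2.57 to 6.65) in TKO, 9.19 (6.18 to 14.3) in TKO_FL and 9.56 (7.87 to 11.7) in TKO_602, so the interval of TKO overlapped that of TKO_FL and not that of TKO_602.

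Several members lie near each other on mm10, and their values are given side by side. Col3a1 and Col5a2 lie 24.6 kb apart on chromosome 1 on opposite strands, and in TKO_602 against TKO their log2 folds were 0.56 and -0.61. Col6a1 and Col6a2, 85.2 kb apart on chromosome 10, were at -0.58 and -0.63 in TKO_FL against TKO, and Col18a1 (chr10:77052179-77166530), 326 kb beyond Col6a1, was at -0.20. On chromosome 2, Col9a3 (chr2:180598222-180622185) and Col20a1 (chr2:180986535-181017540) lie 364 kb apart with folds of 0.88 and 2.52 in TKO_602 against TKO. Exons of Col9a3 share 230 bases with Tcfl5 on the opposite strand, which held 59.7, 57.9 and 48.7 CPM, and counting ignored strand, so Col9a3 is uncertain. Col7a1 shares 36 bases with Mir711.

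Genes that act on collagen chains were counted by list, beside the 5.74%, 19.0% and 11.6% of all genes called in TKO_FL against TKO, TKO_602 against TKO and TKO_602 against TKO_FL. Measured were 14 of 15 genes for hydroxylation and glycosylation, 14 of 14 for folding and export, 12 of 13 for processing and crosslinking, 10 of 12 for degradation, 6 of 9 receptors and 9 of 13 fibril-associated proteins. For hydroxylation and glycosylation, TKO_FL against TKO gave 0 higher and 1 lower of 14, with a median of -0.34, and the lower gene was the prolyl 3-hydroxylase P3h2 at 5.02, 1.09 and 0.156 CPM. TKO_602 against TKO gave P4ha1 higher, at 101, 97.9 and 213 CPM, and P4ha3 and P3h2 lower of 14. P4ha1 and P4ha2, catalytic subunits of prolyl 4-hydroxylase, were the 2 of 14 higher in TKO_602 than in TKO_FL, at 1.11 and 1.22, with 0 lower.

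For folding and export, Serpinh1, the collagen chaperone HSP47, held 244, 80.4 and 112 CPM and was the 1 gene of 14 lower in TKO_FL than in TKO, at -1.59, with 0 higher. In TKO_602 against TKO Serpinh1 at -1.12 and the prolyl isomerase Fkbp10 at -1.05 were lower and 0 higher. TKO was the highest library for this chaperone, while Col1a1 differed by 0.07 between TKO_602 and TKO. Creb3l2, a transcription factor for secretory capacity, was the 1 of 14 higher in TKO_602 than in TKO_FL, at 1.09, with 0 lower.

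For processing and crosslinking, the procollagen C-proteinases Bmp1 at -1.08 and Tll1 at -1.23 were lower in TKO_FL than in TKO, 2 of 12 with 0 higher. In TKO_602 against TKO, Tll1 at -2.26 and the lysyl oxidase relative Loxl4 at -1.47 were lower and 0 higher, and Tll1 was the 1 gene lower against TKO_FL. Of 10 degradation genes, Mmp2 was the 1 gene higher in TKO_602, at 19.1, 30.7 and 70.4 CPM, with 0 lower, and 0 were called in TKO_FL against TKO. Mmp2 is also among the feeder markers. Of 6 measured receptors, the integrin Itga1 gave 5.99, 2.24 and 0.491 CPM and was lower in all 3 comparisons, joined by Ddr2, a discoidin-domain receptor, at -1.01 and -1.04 in those with TKO_602, with 0 higher.

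Of 8 fibril-associated genes tested in TKO_FL against TKO, Comp, a cartilage glycoprotein, was higher at 1.37 and Sparc, a collagen-binding glycoprotein, lower at -1.38. Sparc held 629, 242 and 386 CPM and is also among the primitive endoderm markers. The 9 tested in either comparison with TKO_602 gave 0 called, with Comp at 0.70 and Sparc at -0.70 in TKO_602 against TKO. The medians of the 6 pathway lists in TKO_FL against TKO ran from -0.46 to -0.25.

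Cartilage genes were set beside the cartilage collagens. Of these, Col2a1, Col9a2 and Col9a3 had the order TKO, TKO_FL, TKO_602 from low to high, whereas Col11a2 was highest in TKO_FL, Col11a1 and Col27a1 were lowest there, and Col9a1 had 4, 2 and 0 reads. In TKO_FL against TKO the ratio interval included 0 for Col2a1 (-0.34 to 0.98) and Col9a3 (-0.57 to 1.13). Col9a3 is also the gene that shares exon bases with Tcfl5. The 8 chondrocyte markers without collagens summed to 11.4, 25.01 and 44.1 CPM, and 5 were measured. Matn3, a cartilage matrilin, gave 1.79, 8.01 and 22.8 CPM, and Matn1 gave 0.386, 1.25 and 3.08 CPM. Acan, the large cartilage proteoglycan, gave 5.99, 7.90 and 14.8 CPM, so these 3 had the same order of libraries as Col9a2. Sox9, the factor that defines the lineage, was lowest in TKO_602 at 2.03, 3.38 and 0.469 CPM. Sox5 had 0, 2 and 9 reads, Sox6 had 8, 8 and 34, and Hapln1 had 0, 2 and 0. Comp, in this list too, gave 0.869, 3.85 and 2.03 CPM. In TKO_FL against TKO 2 of 5 were higher and 0 lower, in TKO_602 against TKO 3 higher and 1 lower, and in TKO_602 against TKO_FL 1 higher and 1 lower. Of all genes, 3.24%, 11.0% and 6.75% were higher in these comparisons and 2.50%, 8.06% and 4.87% lower. The part of chondrocytes in the collagen values was not tested.

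**Figure D3:**
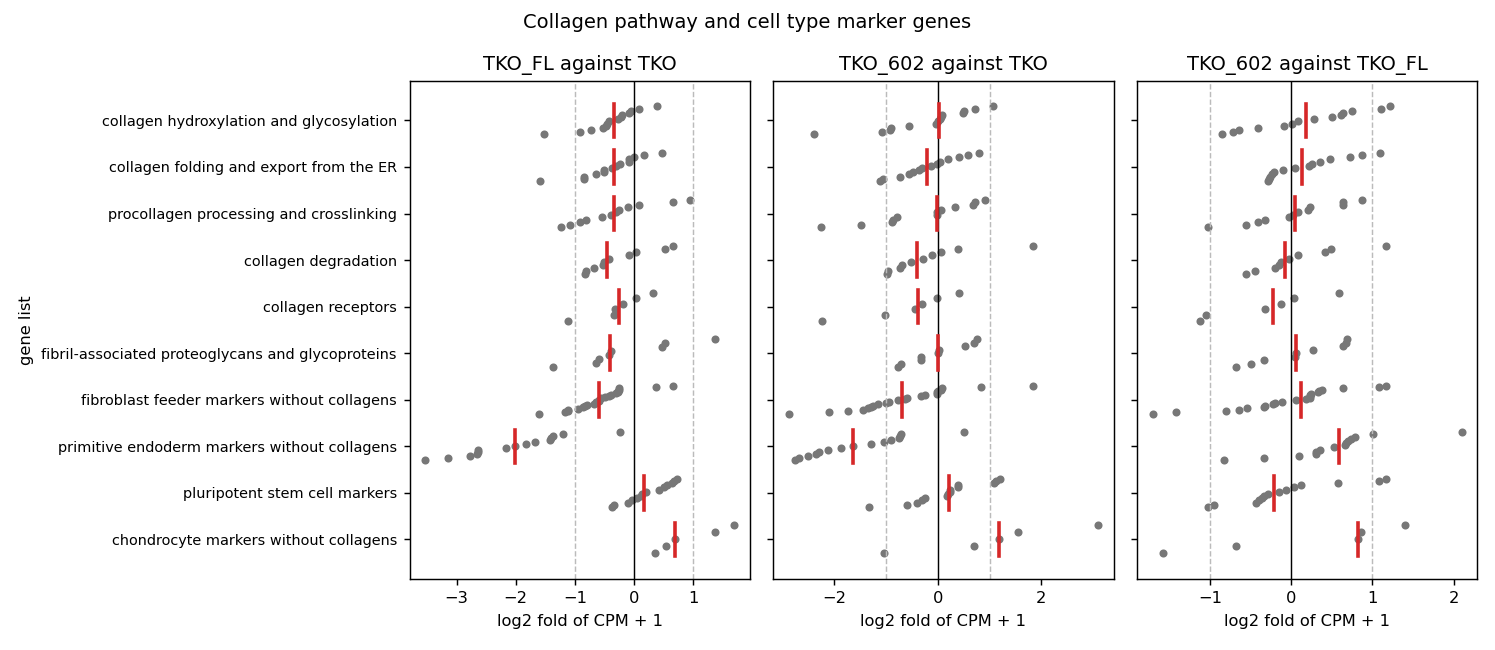
Log2 fold of CPM + 1 for the measured genes of 6 collagen pathway lists and 4 marker lists in the 3 comparisons, 1 grey point per gene, with red bars at list medians and dashed lines at 2-fold. The primitive endoderm medians lie farthest left in both comparisons with TKO, at -2.01 and -1.62, and Matn3 lies farthest right in TKO_602 against TKO at 3.09.

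Promoter windows of 300 bases, 250 before to 50 after the gene start, were matched by symbol for 33 of the 42 members; Col1a1, Col2a1, Col4a3, Col5a2, Col9a3, Col12a1, Col14a1, Col22a1 and Col26a1 had none. The members held a median of 11 CpG per window, from 0 in Col3a1, Col9a1 and Col28a1 to 34 in Col5a1, against a median of 7 and quartiles of 3 and 20 over 32851 windows. Their GC content had a median of 59% against 52.7% for all windows. Among the 6 with a window that were higher in TKO_602 than in TKO, Col20a1 held 1 CpG, Col17a1 held 5, Col15a1 held 8, Col9a2 held 10, Col5a3 held 20 and Col13a1 held 29. The lower ones held 10 in Col6a5 and 32 in Col8a2. With 2 lower members these values are a description only, and methylation of these windows was not analysed here.

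**Figure D4:**
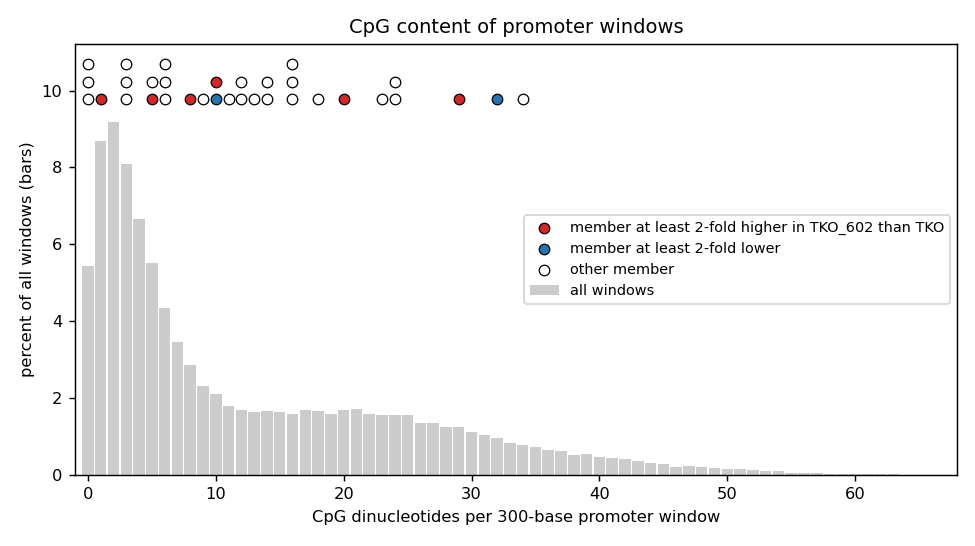
CpG dinucleotides per 300-base promoter window, as percent of all 32851 windows (bars), with circles above for the 33 collagen genes with a window, whose heights only stack equal values. Red circles, members called higher in TKO_602 against TKO, run from 1 to 29 CpG, and blue circles, those lower, lie at 10 and 32.

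Short motifs were searched on both strands of the same windows. TATAAA, the core of the TATA box, was found in 5 members (15.2%), namely Col3a1, Col10a1, Col11a2, Col13a1 and Col17a1, and in 13.6% of all windows. CCAAT was found in 10 members (30.3%) and in 37.4% of all windows. GGGCGG, a GC box letter run, was found in 20 members (60.6%) and in 35.7% of all windows, among them Col9a2, Col11a2 and Col6a5 of the promoters printed above, while Col20a1 held none of the 3 runs. GGGCGG itself contains a CpG.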

How the data were processed

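The deposited count table gives reads per gene from featureCounts 2.0.6 in paired mode with mm10 RefSeq gene models, without strand and with each mate counted, per the file headers. Trim Galore, HISAT2, SAMtools and Subread are named in the submitters' processing notes, with no versions. A second deposited table holds a length-scaled signal for TKO and TKO_FL that sums to 10000000 per library; it was divided by 10 to give TPM and used as an alternative only. Columns of 11 other libraries in each file were not used.

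Counts were scaled to CPM with TMM factors from edgeR 4.0.16, which were 0.980, 0.983 and 1.04, and levels were divided by exon length from the count table. Folds, the CPM minimum of 1, the pseudocount of 1 and the 2-fold limit were applied to all genes. Ratio intervals used reads divided by 2 as fragments, which is approximate because some counts are odd. DESeq2 1.42.0 gave the alternative size factors. The fold script was checked on simulated counts. Every measured member is named, and up to 4 genes of each list with the largest folds plus those a small count needs. The members and lists were chosen with earlier results of these data known. With 1 library per genotype there is no spread between cultures, and intervals cover counting error only.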

Additional observations from a re-analysis of the deposited data

How the results depend on the processing

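Precision was limited by depth for the 19 measured members under 20 CPM in every library and by the single library per genotype. With a pseudocount of 5, 3 of 30 members were at least 2-fold apart in TKO_FL against TKO, in place of 6. They were 3 of 31 in place of 11 in TKO_602 against TKO and 1 of 31 in place of 5 in TKO_602 against TKO_FL. A larger pseudocount pulls scarce genes toward 0. The shares of all genes called at that pseudocount were 1.29%, 8.82% and 4.52%. At a minimum of 5 CPM the members at least 2-fold apart were 7 of 23 in TKO_602 against TKO and 3 of 22 in TKO_602 against TKO_FL, with fewer members tested. The shares of all genes at that minimum were 18.3% and 10.8%. The other settings (pseudocount 0.1, no filter, library size alone, DESeq2 size factors and, for TKO_FL against TKO, TPM and 5 CPM) gave 4 to 6, 10 to 13 and 5 to 7 members in the same order of comparisons. Over all genes a pseudocount of 5 gave 97 higher and 78 lower, 695 and 517, and 344 and 274, against 440 and 339, 1506 and 1108, and 924 and 667. A pseudocount of 0.1 gave 816 and 658 in TKO_FL against TKO. The share of all genes called in the 3 comparisons was 10.9%, 25.3% and 17.4% with a pseudocount of 0.1. It was 4.33%, 14.1% and 8.65% with no filter, and 5.71%, 19.7% and 12.2% with library size alone. DESeq2 size factors gave 5.80% in TKO_FL against TKO and 19.0% in TKO_602 against TKO. In TKO_FL against TKO the share was 6.64% on TPM and 4.86% at a minimum of 5 CPM. Library size alone moved the median of all genes from 0.03 to 0.12 in TKO_602 against TKO and to 0.11 in TKO_602 against TKO_FL. No fold of a measured member reversed direction past the limit under the alternatives run. No paired analysis was possible because each genotype has 1 library.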
